A study of Mus musculus with 12 samples.

Results

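Chemokines are small secreted proteins that steer migrating leukocytes, and their receptors are the G protein-coupled receptors through which cells read them. The genes described here are the protein-coding rows of the deposited count table whose symbol has the form of a numbered chemokine ligand (Ccl, Cxcl, Xcl, Cx3cl) or receptor (Ccr, Cxcr, Xcr, Cx3cr). This rule used names and not measured values, and it found 62 of 54532 rows. The 62 rows carry 56 symbols, of which 44 rows are ligands and 18 are receptors, and 7 rows lie on unplaced scaffolds.

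The libraries came from subcutaneous fat and liver of male mice from The Jackson Laboratory. Every mouse received 1 tail vein injection of an adeno-associated virus of serotype 8 (AAV8) at 10 weeks of age and a low-fat diet for the 16 weeks that followed. Null mice received the vector with the hepatocyte promoter TBGp alone, and hHKDC1 OE mice received the vector with full-length human HKDC1, a hexokinase, behind that promoter, so the transgene was directed to liver cells and not to fat. Each tissue and vector had 3 libraries, 12 in all, with 15496019 to 19954971 reads counted on genes. The sample titles and treatment labels place 3 libraries per tissue in the overexpression group, whereas a description field calls 2 of those 3, replicates 2 and 3, knockouts. Mouse Hkdc1 had 0 to 8 reads in every library, and the human transgene was not analysed here, so these counts do not check that label. Nothing in the labels says which libraries came from the same mouse. P-values therefore measure only the spread between these libraries.

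Homing chemokines are made by the stroma of lymphoid organs and direct lymphocytes and dendritic cells into them: Ccl19 and the Ccl21 genes are read by Ccr7, and Cxcl13 is read by Cxcr5. Inflammatory chemokines are made by many cell types on stimulation, and draw in monocytes, neutrophils, eosinophils, T cells and NK cells. A further group, here called constitutive, is made steadily in tissues, and includes Cxcl12 and its receptor Cxcr4. The rows fell into these classes as 9 homing ligands and 2 homing receptors, 25 inflammatory ligands and 13 inflammatory receptors, and 10 constitutive ligands and 3 constitutive receptors.

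The families are named after the spacing of the first cysteines of the mature protein, and this spacing can be read in the coding sequence. Below, the codons of these cysteines are in capitals, with 4 codons on each side, for ligands that the results turn on. The sequences were read on the gene's strand from the GENCODE M21 transcripts of GRCm38. In Ccl19 (chr4:42755248-42755277), Ccl21a (chr4:42773723-42773752), Ccl22 (chr8:94746922-94746951), Ccl5 (chr11:83529230-83529259) and Ccl8 (chr11:82116044-82116073) the cysteine codons are adjacent, which defines the CC family. In Cxcl13 (chr5:95958652-95958684), Cxcl10 (chr5:92348169-92348201) and Cxcl16 (chr11:70459115-70459147) another codon separates them, which defines the CXC family, and in Cx3cl1 (chr8:94778039-94778077) 3 codons do.
Ccl19: gatgcggaagacTGCTGCctgtctgtgacc
Ccl21a: gggggtcaggacTGCTGCcttaagtacagc
Ccl22: gaagacagtatcTGCTGCcaggactacatc
Ccl5: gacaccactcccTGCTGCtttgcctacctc
Ccl8: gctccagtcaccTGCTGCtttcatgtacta
Cxcl13: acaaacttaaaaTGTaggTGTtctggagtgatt
Cxcl10: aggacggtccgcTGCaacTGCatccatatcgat
Cxcl16: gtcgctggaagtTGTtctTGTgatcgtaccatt
Cx3cl1: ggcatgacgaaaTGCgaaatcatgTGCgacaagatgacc

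Of the 62 rows, 7 had no read in any library and 18 never reached 10 reads in a library. The test on fat, which left out genes with few reads, kept 35 rows, the test on liver kept 20, and 27 rows were kept by neither. Among the 35, 23 reached the filter's cutoff of 0.55 CPM (reads scaled to library size with TMM factors) in all 3 null fat libraries, 11 reached it only in hHKDC1 OE fat, and 1 reached it in neither group as a whole. Entry through the hHKDC1 OE libraries favours rows that are higher there, so counts over the 35 rows are descriptions and not support.

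In subcutaneous fat, most receptor and ligand genes of the homing and the inflammatory class had more reads in hHKDC1 OE than in null libraries, and the smallest unadjusted p-values were those of Ccr7, Cxcr5, Ccr6, Ccl22 and Ccl5. None passed the test. With edgeR's quasi-likelihood test and Benjamini-Hochberg adjustment, 0 of the 35 members and 0% of 16380 genes were called at adjusted p under 0.05, and the smallest adjusted p was 0.133, which 366 genes had. Before adjustment, at p under 0.05, 21 of 35 members were higher, beside 11.3% of all genes, and 0 were lower, beside 6.39%. The normalized values of the 3 hHKDC1 OE libraries all lay above those of the 3 null libraries in 18 of 35 members, beside 12.5% of all genes, and below them in 0, beside 10.2%. Over all rows with at least 1 read in fat, without the filter, 21 of 55 members lay wholly above, beside 9.06% of 29853 rows, and 0 lay wholly below, beside 6.79%. The median log2 fold change was 1.63 over the 35 members and -0.05 over all genes tested, and 29 members were above 0, beside 46.1% of all genes.

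The calls depended on the tool, the filter and 1 library. DESeq2 called 20 members higher in fat, beside 4.2% of all genes, and 0 lower, beside 0.647%. Without the filter, edgeR called 14 of 55 members higher, beside 2.42%, and 0 lower, beside 0.268%. With the 12 libraries of both tissues in 1 fit, 11 of 35 were called higher, beside 4.51%, and 0 lower, beside 0.621%. Without hHKDC1 OE fat replicate 2, edgeR called 23 of 42 members higher, beside 11.4% of all genes, and 1 lower, Cxcl14, beside 7.53%.

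**Figure D1:**
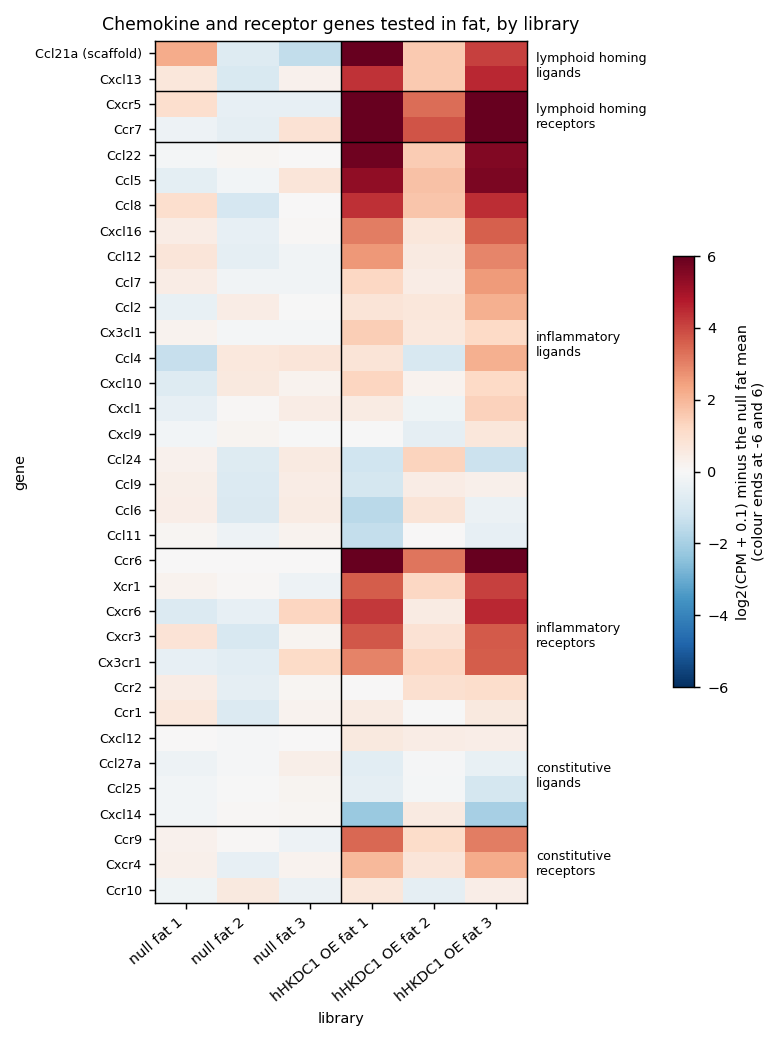
Chemokine and receptor genes tested in fat and named here (rows, grouped by class and ordered by fold change) in the 6 fat libraries (columns). Colour gives log2(CPM + 0.1) minus the mean of the null libraries and ends at -6 and 6; hHKDC1 OE replicates 1 and 3 are dark red in the homing rows and in many inflammatory receptor rows, and replicate 2 is paler.

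Ccr7, the receptor that brings naive T cells and mature dendritic cells into lymph nodes, lies on chromosome 11 (99144196 to 99155077, GRCm38). It had 5, 4 and 15 reads in the null fat libraries and 1899, 140 and 1678 in the hHKDC1 OE ones. The groups did not overlap, although replicate 2 was more than 10-fold under the other hHKDC1 OE libraries. Mean CPM was 0.451 ± 0.305 in null and 66.7 ± 52.2 in hHKDC1 OE fat (SD, n = 3), a log2 fold change of 7.15 with a standard error of 1.16 (edgeR adjusted p = 0.133).

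Cxcr5, which places B cells in follicles, lies on chromosome 9 (44511787 to 44561877). Its reads numbered 3, 0 and 0 in null fat against 729, 27 and 375 in hHKDC1 OE fat. With 3 reads in the null group, the ratio of 334 has an exact 95% counting interval of 114 to 1623, which covers counting error only (edgeR adjusted p = 0.133). Of its exon bases, 3.3% also belong to Bcl9l, and the libraries carried no strand.

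Cxcl13, the Cxcr5 ligand made by follicular stroma, had 69, 21 and 57 reads in null fat against 1130, 158 and 985 in hHKDC1 OE fat. Every hHKDC1 OE library was above every null library. The means were 2.85 ± 1.46 and 40.6 ± 28.7 CPM, a difference of 3.83 on the log2 scale (SE 0.81) that was not called by edgeR (adjusted p = 0.133).

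The Ccr7 ligands were spread over near-identical rows. The Ccl21a row on an unplaced scaffold had 20, 1 and 0 reads in null fat against 1299, 15 and 76 in hHKDC1 OE fat, so the groups overlapped and most of the reads came from 1 library. Its log2 fold change was 5.72 with a standard error of 1.92 (edgeR adjusted p = 0.208). Left out one at a time, the libraries moved that value between 2.65 and 9.24. The chromosome 4 row of Ccl21a had 0 reads in each null fat library and 7, 1 and 6 in hHKDC1 OE fat, and a scaffold row of Ccl21c had 0, 2 and 0 against 7, 2 and 3. The coding sequences of Ccl21a and Ccl21b on chromosome 4 are both 399 bases long and differ at 2 positions, T84A and C194T (Ccl21a base first, counted from the first base of the start codon), so reads can be shared or lost between the copies and the value of any single row is uncertain. Ccl19 on chromosome 4 was listed at 0 in the null fat libraries and had 16, 0 and 23 reads in hHKDC1 OE fat, at least 12.4-fold higher against a floor of 3 reads over the null group, and it was not tested. The other 4 homing rows, copies of Ccl19, Ccl21b and Ccl21c, had 0 reads in all 12 libraries.

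**Figure D2:**
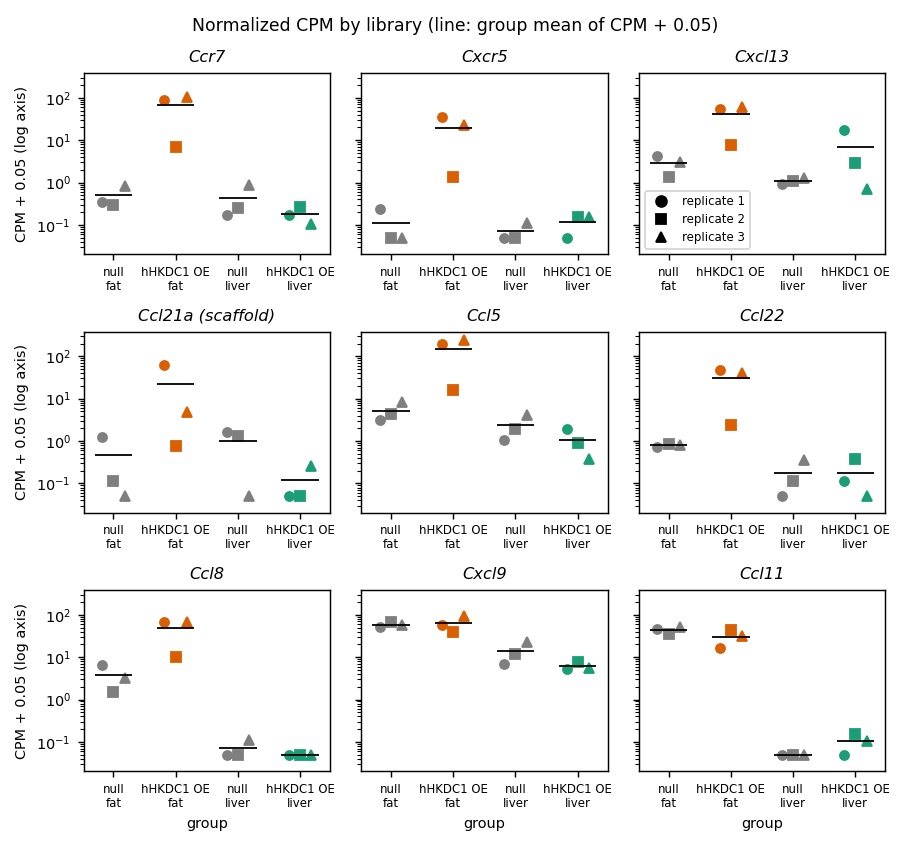
Normalized CPM (plus 0.05, log axis) of 9 genes in each of the 12 libraries, by group, with a line at the group mean. In fat, the hHKDC1 OE libraries of Ccr7, Cxcr5, Cxcl13, Ccl5, Ccl22 and Ccl8 lie above all null libraries with replicate 2 (square) lowest, Cxcl9 and Ccl11 overlap between the fat groups, and Ccl8 and Ccl11 are near 0 in liver.

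Among inflammatory ligands, Ccl22, which attracts Ccr4-bearing T cells and is made by dendritic cells, had 11, 13 and 14 reads in null fat against 1011, 48 and 646 in hHKDC1 OE fat. Null libraries were nearly equal (0.741 ± 0.069 CPM) and hHKDC1 OE libraries were widely spread (30.0 ± 24.3 CPM). The log2 fold change was 5.32 (SE 1.07, edgeR adjusted p = 0.133). Ccl5, a T cell and NK cell product that acts on Ccr1 and Ccr3, had 52, 69 and 151 reads against 4081, 333 and 3952. Its log2 fold change was 4.86 (SE 0.98), and its mean deposited FPKM of 110 ± 85.9 was the highest of all members in hHKDC1 OE fat. The next in that order, Ccl8 at 67.3 ± 45.4 FPKM, overlapped it. Ccl8, a ligand of the monocyte chemoattractant group, had 107, 24 and 59 reads in null fat against 1439, 206 and 1125 in hHKDC1 OE fat, with a log2 fold change of 3.72 (SE 0.84).

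Cxcl16, a membrane-bound ligand of Cxcr6, had 130, 67 and 115 reads in null fat against 1061, 193 and 1166 in hHKDC1 OE fat (log2 fold change 2.85, SE 0.69), although 18.3% of its exon bases also belong to Zmynd15. Cx3cl1, the membrane-bound ligand of Cx3cr1, was less spread, with 71, 55 and 64 reads against 218, 120 and 142 (1.16, SE 0.31). In both genes the groups did not overlap.

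Ccl12, Ccl7 and Ccl2 are monocyte attractants that act on Ccr2. Ccl12 had 17, 6 and 9 reads in null fat against 86, 18 and 83 in hHKDC1 OE fat (log2 fold change 2.40, SE 0.75). Ccl7 had 43, 26 and 31 against 99, 54 and 193 (1.70, SE 0.59), and Ccl2 had 24, 46 and 38 against 76, 67 and 149 (1.33, SE 0.51). Of these 3 genes, Ccl12 overlapped between the groups through replicate 2. Leaving out a library at a time gave 0.90 to 2.06 for Ccl7 and 0.70 to 1.58 for Ccl2, with both lowest values without hHKDC1 OE fat replicate 3. Their adjusted p-values by edgeR were between 0.183 and 0.252.

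Cxcl9 and Cxcl10 are interferon-induced ligands of Cxcr3. Cxcl9 had 859, 1058 and 1072 reads in null fat against 1213, 808 and 1497 in hHKDC1 OE fat, and Cxcl10 had 45, 113 and 101 against 243, 110 and 180. Their log2 fold changes were 0.11 (SE 0.30) and 0.88 (SE 0.45). Leaving out a library at a time gave 0.54 to 1.15 for Cxcl10, the lowest without null fat replicate 1. Mean CPM of Cxcl10 was 5.05 ± 2.16 in null and 9.32 ± 3.42 in hHKDC1 OE fat (SD, n = 3), where replicates 1 and 3 were above every null library and replicate 2 lay among them. Cxcl9 also overlapped between the groups. Cxcr3 itself had 35, 9 and 25 reads in null fat against 361, 46 and 268 in hHKDC1 OE fat (log2 fold change 3.15, SE 0.83, edgeR adjusted p = 0.144).

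Cxcl12, the retention signal for Cxcr4-bearing cells, had a small difference with little spread, at 2751, 2462 and 3110 reads in null fat against 5132, 4470 and 3515 in hHKDC1 OE fat, or 162 ± 8.18 and 226 ± 15 CPM. The groups did not overlap (log2 fold change 0.48, SE 0.14, edgeR adjusted p = 0.165). Its receptor Cxcr4 had 184, 103 and 193 reads against 752, 309 and 687 (1.73, SE 0.41).

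All 13 receptors tested in fat had a log2 fold change above 0, with a median of 3.15, although Ccr1 was at -0.11 without null replicate 2 and Ccr10 at -0.04 without hHKDC1 OE replicate 1. Of the 22 ligands tested, 16 were above 0, with a median of 0.91. The filter's cutoff was reached in all libraries of hHKDC1 OE fat but not of null fat by 9 of the 13 receptors and 2 of the 22 ligands, so these counts and medians of receptors and ligands cannot be compared. Ccr6, the receptor for Ccl20 on B cells and some T cells, had 0 reads in each null fat library and 151, 17 and 130 in hHKDC1 OE fat, which is at least 91.0-fold higher against a floor of 3 reads over the group. Xcr1, a marker of cross-presenting dendritic cells, had 7, 6 and 5 reads against 114, 20 and 124 (log2 fold change 3.69, SE 0.80). In neither gene did the groups overlap.

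Cxcr6, found on effector T cells and NK T cells, had 7, 9 and 40 reads in null fat against 369, 24 and 341 in hHKDC1 OE fat, and overlapped through replicate 2 (log2 fold change 3.64, SE 1.10). Cx3cr1, the fractalkine receptor of monocytes and macrophages, had 8, 7 and 33 against 136, 39 and 165 (2.76, SE 0.80). In Cx3cr1 every hHKDC1 OE library was above every null library.

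Ccr9, the Ccl25 receptor of gut-homing T cells, had 6, 5 and 4 reads in null fat against 87, 15 and 52 in hHKDC1 OE fat (log2 fold change 3.16, SE 0.73), with 21.5% of its exon bases shared with other genes. Its ligand Ccl25 had 87, 95 and 126 reads against 87, 113 and 46 (-0.52, SE 0.33), with -0.79 without hHKDC1 OE replicate 2 and -0.31 without replicate 3. The receptors with the smallest differences were Ccr2 (0.69, and 0.43 without null replicate 2), Ccr1 (0.26) and Ccr10 (0.23).

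The rows left out of the fat test had at most 122 reads in a fat library. That value belonged to Cxcr2, a neutrophil receptor, with 0, 1 and 0 reads in null fat against 78, 4 and 122 in hHKDC1 OE fat, a ratio of 181 with an exact counting interval of 32.1 to 7178. Ccr4, the Ccl22 receptor, had 3, 1 and 3 against 71, 9 and 53, and Xcl1, the Xcr1 ligand, had 7, 2 and 2 against 53, 8 and 24. The groups did not overlap in Cxcr2 and Ccr4, and in Xcl1, which shares 18.7% of its exon bases with another gene, they overlapped through replicate 2. These genes were named after their values were seen, as were Ccl17, another Ccr4 ligand, at 1, 9 and 5 against 31, 7 and 15 reads, and Ccr8 at 0, 0 and 5 against 25, 0 and 15.

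Of the 35 members tested, 6 had a log2 fold change under 0 in fat, and in each of them hHKDC1 OE replicate 2 was the highest of the 3 hHKDC1 OE libraries. Cxcl14, an epithelial and stromal chemokine, had 1300, 1528 and 1810 reads in null fat against 404, 2641 and 370 in hHKDC1 OE fat. Ccl11, which attracts eosinophils, had 773, 571 and 940 against 341, 916 and 499, and Ccl6 had 1132, 461 and 1399 against 366, 1850 and 676. Their log2 fold changes were -0.66 (SE 0.70), -0.53 (SE 0.36) and -0.21 (SE 0.60). Without replicate 2, the edgeR log2 fold change of Cxcl14 was -2.12 (adjusted p = 0.00083), and without replicate 1 it was -0.25. The value of Ccl11 was -0.93 without replicate 2 and -0.23 without replicate 1. The other 3 were Ccl25, Ccl27a (-0.41, and -0.22 without null replicate 3) and Ccl9 (-0.06). Of these 6, Ccl9 was at 0.07 under library-size scaling and at up to 0.27 with a library left out, and Ccl6 was at 0.20 without hHKDC1 OE replicate 1.

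Replicate 2 stood apart from replicates 1 and 3 of hHKDC1 OE fat in both directions. It was below both in 26 of the 35 members, above both in 7 and between them in 2. Relative to the null mean, the median log2 ratio over the 35 members (with 0.1 added to each CPM) was 1.22 in replicate 1, 0.63 in replicate 2 and 2.17 in replicate 3. For the 8 inflammatory receptors these medians were 3.15, 0.80 and 3.44. For the 4 constitutive ligands they were -0.58, 0.16 and -0.77.

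**Figure D3:**
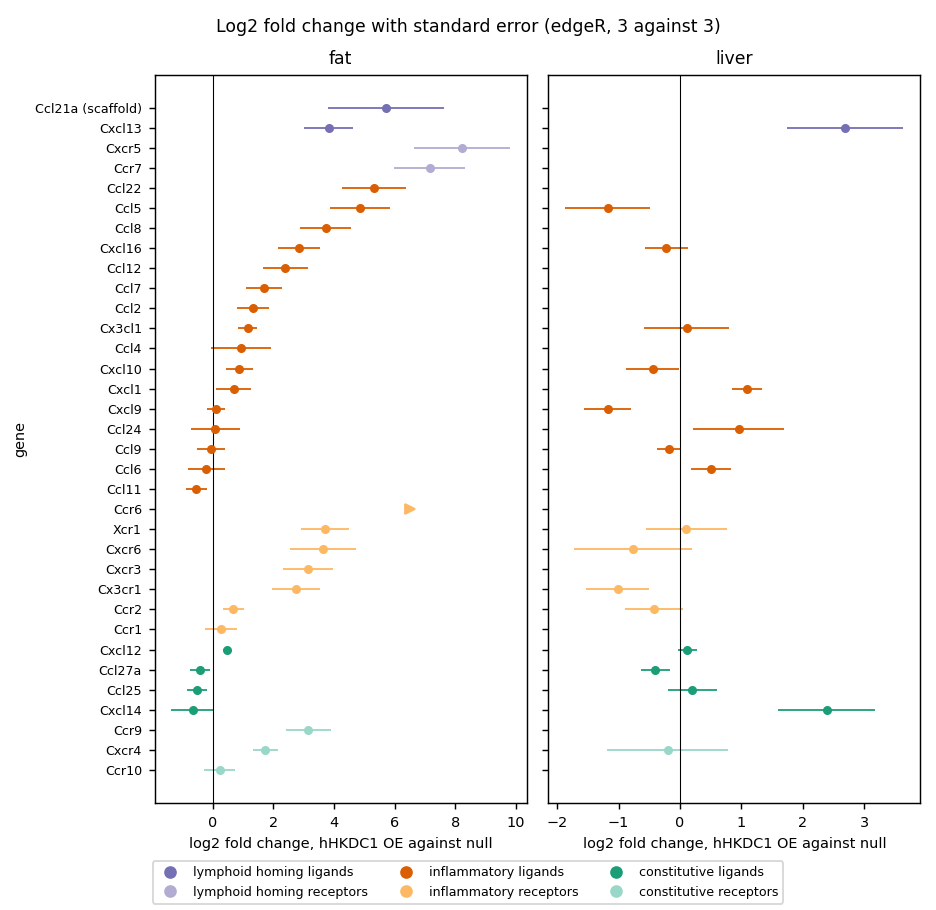
Log2 fold change of hHKDC1 OE against null with its standard error for the named members tested in fat (left) and in liver (right, on its own scale), coloured by class. The arrow marks Ccr6 at its lower bound, and the fitted value of Cxcr5 rests on 3 null reads; receptors lie right of 0 in fat, whereas the liver values spread over both sides.

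Markers of lymphocytes and of lymph node stroma moved with these genes in fat. The summed CPM of 10 B cell markers was 2.43 to 4.33 in null fat against 955, 54.5 and 719 in hHKDC1 OE replicates 1, 2 and 3, with 10 of 10 genes wholly higher, beside 12.5% of the genes tested in fat and 9.06% of rows with a read. The sum of 10 T cell markers was 6.57 to 15.7 against 530, 40.2 and 670, with 9 of 10 genes wholly higher. Both sums placed replicate 2 lowest, as Ccr7 and Cxcr5 did.

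The 6 genes of lymph node stroma and venules summed to 0.930 to 1.76 CPM in null fat and 5.82 to 58.1 in hHKDC1 OE fat, with 5 of 6 wholly higher. Glycam1, an L-selectin ligand of lymph node venules, had 0, 0 and 1 reads in null fat against 591, 43 and 348 in hHKDC1 OE fat, and Chst4, an enzyme of these venules, had 0 in each null library and 50, 4 and 28. The 7 dendritic cell markers summed to 128 to 135 against 191 to 538 CPM (6 of 7 wholly higher). The 8 macrophage markers summed to 291 to 584 against 761 to 1176 CPM (3 wholly higher and 1 wholly lower). Lyz2 held the most reads of the macrophage list, at 3472, 1566 and 3671 in null fat against 14356, 6676 and 13553 in hHKDC1 OE fat. Cd163 went the other way in replicates 1 and 3, at 1207, 684 and 1873 reads against 170, 2516 and 190. The macrophage list therefore did not move as a whole. Smaller sums were those of 6 NK cell markers, 3.60 to 7.01 against 9.43 to 32.6 CPM (5 wholly higher), and 6 neutrophil markers, 2.48 to 5.11 against 9.84 to 25.8 CPM (3 wholly higher). The part of these markers in the chemokine values was not tested. In bulk tissue, more cells of a type and more RNA per cell cannot be told apart.

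The fat libraries also differed in other cell types. The 8 adipocyte markers summed to 46346 to 51039 CPM in null fat against 25736, 45540 and 35040 in hHKDC1 OE fat, with replicate 2 nearest to the null range. Skeletal muscle markers ranged from 501 to 21459 CPM in null fat and from 997 to 14613 in hHKDC1 OE fat, keratinocyte markers from 16.9 to 288 against 2.13 to 10.9 (5 of 6 wholly lower), and hepatocyte markers from 2655 to 7705 against 765 to 2137. The 5 Kupffer cell markers, of which Marco and Cd5l are also made by other macrophages, summed to 5.02 to 14.2 against 27.4 to 354. Of these, 3 were wholly higher, namely Marco, Cd5l and Timd4. Clec4f and Vsig4 overlapped, at 29, 9 and 91 reads against 63, 23 and 52 and at 17, 2 and 33 against 14, 8 and 18. Endothelial markers overlapped, at 876 to 1043 against 689 to 1064 CPM. The sum of 5 brown adipocyte markers also overlapped, at 36.6 to 73.7 against 36.3 to 203, with 1 of 5 wholly higher. That gene was Ucp1, at 2, 20 and 1 reads in null fat against 1529, 91 and 338 in hHKDC1 OE fat. Cidea had 407, 704 and 349 reads against 2212, 499 and 1414, and Elovl3 had 60, 49 and 281 against 102, 34 and 40. The part of these differences in the chemokine values was not tested.

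**Figure D4:**
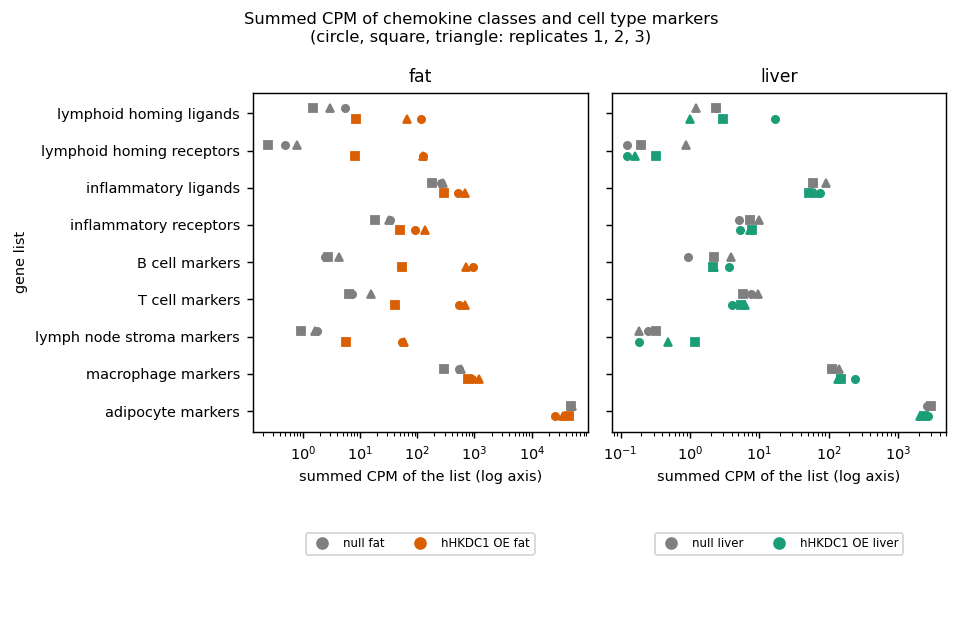
Summed CPM (log axis) of the homing and inflammatory classes and of 5 marker lists in each library of fat (left) and liver (right); the symbol gives the replicate. In fat the homing classes, B cell, T cell and lymph node stroma sums of all hHKDC1 OE libraries lie above those of the null libraries, with replicate 2 lowest. In liver the sums of these lists overlap between groups.

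Downstream of the receptors, 46 further genes of the pathway were read: 39 signalling genes, 5 atypical or decoy receptors and 2 platelet chemokines. In fat 45 were tested and 0 were called by edgeR; at an unadjusted p under 0.05, 25 were higher, beside 11.3% of all genes, and 1 was lower, beside 6.39%. Of 38 signalling genes tested, 21 lay wholly higher, beside 12.5% of all genes, and 1 wholly lower, Rac1 (-0.18), beside 10.2%. Those wholly higher included Rac2, a GTPase of blood cells (log2 fold change 4.42, SE 0.84), Dock2, its activator in lymphocytes (2.84, SE 0.60), and Plcb2, a phospholipase (3.56, SE 0.70). In all, 28 of the 38 were above 0, beside 46.1% of all genes, and 10 were below, with a median of 0.86. Signalling genes near 0 included Gnb1 (0.07, SE 0.15), Arrb1 (0.01, SE 0.22), Stat3 (-0.01, SE 0.15) and Jak2 (-0.07, SE 0.18), so the list did not move as a whole. The same filter was applied here, so these counts are descriptions and not support.

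The atypical receptors, most of which bind chemokines without G protein signalling, had log2 fold changes below 0 in 5 of 5 genes, as did 8824 of the 16380 genes tested. Ackr4, a scavenger of Ccl19, Ccl21 and Ccl25, had the lowest log2 fold change at -1.65 (SE 0.48, edgeR adjusted p = 0.167), and its groups did not overlap. Ackr2, a scavenger of inflammatory CC ligands, was at -1.15 (SE 0.59), and Ackr3, a scavenger of Cxcl12, was at -1.14 (SE 0.54). The values of Ackr1, -0.21 (SE 0.40), and Ccrl2, -0.29 (SE 0.32), lay within their standard errors of 0. Of the platelet chemokines, Pf4 was at 0.05 (SE 0.55) and Ppbp at 1.28 (SE 0.67).

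In liver, the tissue that received the transgene, chemokine genes were as often lower as higher. Of the 20 members tested, 10 were above 0, beside 51.1% of all genes, and 10 below, with a median log2 fold change of -0.04, beside 0.01 over all 13351 genes tested. The edgeR test called 0 members and 0% of genes at adjusted p under 0.05. At an unadjusted p under 0.05, 3 were higher, beside 3.89% of all genes, and 1 was lower, beside 3.05%. Only Cxcl1 lay wholly higher, beside 6.31% of genes, and only Cx3cr1 wholly lower, beside 6.18%. Over all rows with a read in liver, 1 of 48 members lay wholly higher, beside 4.64%, and 3 wholly lower, beside 4.44%, the other two being Cxcr3, at 9, 13 and 15 reads against 4, 8 and 1, and Ccl17, at no more than 3 reads. DESeq2 called 2 members higher, Cxcl14 and Cxcl1, beside 0.182% of all genes, and 0 lower, beside 0.198%. The edgeR test without hHKDC1 OE liver replicate 2 also called these genes, 2 of 23 members, beside 0.567% of all genes, and 0 lower, beside 0.508%. Without the filter, edgeR called 3 of 48 members higher, beside 0.726%, namely Cxcl14, Cxcl13 and Cxcl1, and 2 lower, beside 0.593%, namely Cxcl9 and scaffold Ccl21a.

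Cxcl1, a neutrophil attractant that hepatocytes can make, had 61, 76 and 78 reads in null liver and 193, 140 and 180 in hHKDC1 OE liver, or 4.52 ± 0.652 and 9.64 ± 2.21 CPM (SD, n = 3). Its log2 fold change was 1.09 with a standard error of 0.24 (edgeR adjusted p = 0.394). Leaving out a library at a time gave 0.91 to 1.25. The neutrophil receptor Cxcr2 had at most 5 reads in a liver library, and the neutrophil markers summed to 0.741 to 4.96 CPM in null liver and 1.33 to 6.33 in hHKDC1 OE liver.

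Cxcl14 had 9, 8 and 30 reads in null liver and 142, 16 and 112 in hHKDC1 OE liver, and Cxcl13 had 14, 16 and 20 against 277, 55 and 12. In both genes the groups overlapped through 1 hHKDC1 OE library, replicate 2 for Cxcl14 and replicate 3 for Cxcl13. The log2 fold changes were 2.39 (SE 0.79) and 2.69 (SE 0.95), and leaving out a library at a time gave 1.79 to 3.25 for Cxcl14 and 0.76 to 3.24 for Cxcl13. The liver sums of B cell markers, 0.926 to 3.97 CPM in null and 2.18 to 3.63 in hHKDC1 OE liver, overlapped, and Cxcr5 had at most 2 reads in a liver library.

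Cxcl9 had 110, 184 and 359 reads in null liver and 83, 140 and 104 in hHKDC1 OE liver (log2 fold change -1.18, SE 0.38, edgeR adjusted p = 0.586), and leaving out a library at a time gave -1.50 to -0.64, the latter without null replicate 3. Cx3cr1 had 21, 25 and 16 against 6, 14 and 15 (-1.02, SE 0.51). Ccl5 had 16, 29 and 65 against 31, 16 and 6 (-1.18, SE 0.69). Its value was -1.96 without hHKDC1 OE liver replicate 1 and -0.50 without null liver replicate 3. Cxcl12, the member with the highest FPKM in liver, had 3715, 3333 and 4627 against 4266, 4794 and 5227 (0.12, SE 0.16). The liver sum of Kupffer cell markers was 81.1 to 150 CPM in null and 148 to 320 in hHKDC1 OE liver, that of macrophage markers was 109 to 140 against 138 to 242, and that of T cell markers was 5.80 to 9.49 against 4 to 6.19. Hepatocyte markers summed to 111452 to 116214 CPM in null liver and 71281 to 95563 in hHKDC1 OE liver. The part of these lists in the chemokine values was not tested.

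Whether the treatment difference was larger in fat than in liver was tested directly in a fit of the 12 libraries. With edgeR's quasi-likelihood test, 0 of the 35 members and 0% of 17070 genes passed an adjusted p of 0.05, while 11 members were higher at an unadjusted p under 0.05, beside 9% of all genes, and 1 was lower, beside 3.67%. DESeq2 called 6 members higher, beside 1.3% of all genes, and 0 lower, beside 0.292%. Without the filter, edgeR called 7 of 55 higher, beside 1.36%, and 0 lower, beside 0.17%. Without hHKDC1 OE fat replicate 2, edgeR called 11 of 43 members higher, beside 3.92%, and 1 lower, beside 2.86%. The members with the smallest p were Ccr7 (difference of log2 fold changes 8.73, SE 1.70), Ccl5 (6.13, SE 1.28) and Cxcr3 (4.90, SE 1.15), with adjusted p-values of 0.139 to 0.140. The lower one was Cxcl14, at -2.99 (SE 1.20, edgeR adjusted p = 0.321) and at -4.63 without hHKDC1 OE fat replicate 2, with a fold change under 0 in fat and above 0 in liver.

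Without the transgene, fat and liver had different leading chemokines. Of 27 members tested between null fat and null liver, edgeR called 10 higher in fat, beside 33.8% of 15259 genes, and 4 lower, beside 30.5%. In both directions together, 51.9% of the members tested and 64.3% of all genes were called. Scaling by library size alone moved the median log2 difference of all genes from 0.09 to 0.98 and gave 13 members higher, beside 59.1% of all genes, and 3 lower, beside 15%. These null libraries also enter the treatment comparisons.

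Ccl11 had 773, 571 and 940 reads in null fat and 0 in each null liver library, at least 703-fold higher in fat. Ccl8 had 107, 24 and 59 reads against 0, 0 and 1, a ratio of 177 with an exact counting interval of 31.3 to 7014. Cxcl14 had 1300, 1528 and 1810 against 9, 8 and 30, a log2 difference of 5.58 (SE 0.41, edgeR adjusted p = 1.54e-05). The groups did not overlap in these 3 genes.

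Ccl7, with 43, 26 and 31 reads in null fat and 0, 0 and 4 in null liver, had a log2 difference of 3.54 (SE 0.95). All its null liver reads were in replicate 3, and leaving out a library at a time gave 2.97 to 7.73, the latter without that library. Ccl6, a macrophage product, had 1132, 461 and 1399 reads against 42, 61 and 91, a log2 difference of 2.89 (SE 0.42). Among receptors, Ccr10 had 18, 32 and 19 against 1, 3 and 1 (2.70, SE 0.69), and Ccr2 had 421, 211 and 380 against 14, 37 and 29 (2.61, SE 0.41). The other genes called higher in fat were Cxcr4 (2.40), Cx3cl1 (1.40) and Cxcl9 (1.16). The call of Cxcl9 was lost without null fat replicate 2 (edgeR adjusted p = 0.0589) and without null liver replicate 2 (0.0903).

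Cxcl1 was higher in null liver, with 61, 76 and 78 reads against 10, 15 and 23 in null fat (-3.20, SE 0.37). Ccl27a (-1.75), Cxcl12 (-1.53) and Cxcl16 (-1.08) were also called lower in fat. The call of Cxcl16 was lost under library-size scaling (-0.19, edgeR adjusted p = 0.644), without null fat replicate 2 (0.0845) and without null liver replicate 3 (0.0866). Per length, Cxcl12 was the highest member in null liver at 40.7 ± 5.63 FPKM, well above Ccl9 at 15.3 ± 2.64. In null fat, Cxcl14 at 36.6 ± 4.17, Ccl11 at 30.4 ± 5.93 and Ccl6 at 23.8 ± 10.8 FPKM were the highest, and each differed from its neighbour by less than their summed SDs. In hHKDC1 OE fat, Ccl5 and Ccl8 had the highest mean FPKM. The mean of scaffold Ccl21a, 38.6 ± 58.8 FPKM, rested on 1 library, at 106, 1.37 and 8.10. Cxcl13 at 24.7 ± 17.2 was not separated from Ccr7 at 23.5 ± 18.3 or Cxcl14 at 23.0 ± 26.1 FPKM.

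**Figure D5:**
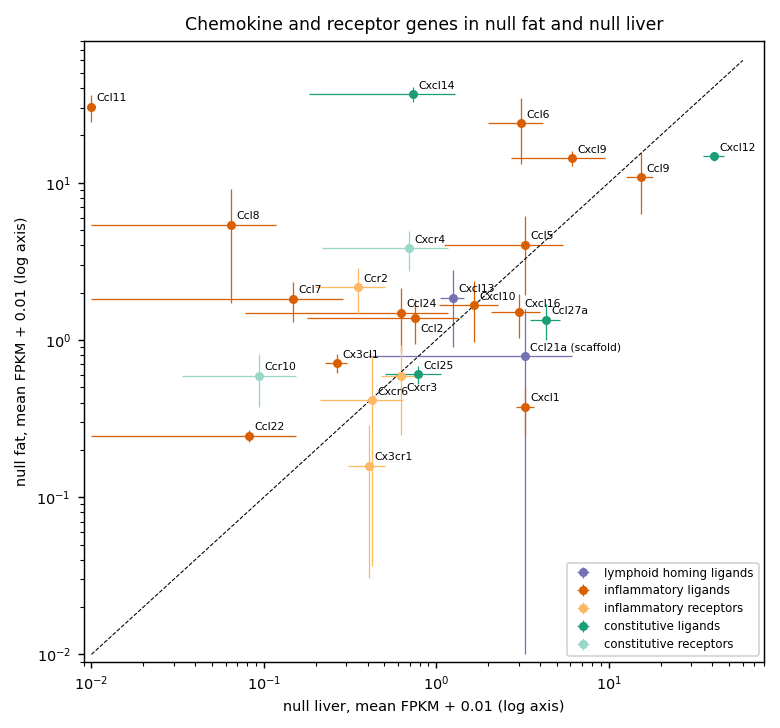
Mean FPKM (plus 0.01, log axes) of the named members tested, in null liver (x axis) and null fat (y axis), with bars for the SD of 3 libraries that are cut at 0; the dashed line marks equal levels. Ccl11, Ccl8, Ccl7 and Cxcl14 lie far above the line, and Cxcl1, Ccl27a and Cxcl12 below it.

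Promoter sequence was read for the 41 member symbols that RefSeq (GRCm38.p6) holds, as 250 bases upstream of the start. The TATA box TATAAA, searched on the gene's strand, was found in 9 of 41 members (22%) and in 8.12% of 27025 promoters. An interferon response core, GAAA followed after any 2 bases by another GAAA on either strand, was found in 3 members (7.32%), Ccl19, Cxcl10 and Cxcl14, and in 3.04% of promoters. The NF-kappaB consensus, on either strand, was found in 9 members (22%) and in 7.01% of promoters. A match is a description of letters and not a binding site. The promoters of Cxcl13 and Ccl8, which were wholly higher in hHKDC1 OE fat, and of Cxcl10, which overlapped, are shown as examples with a match, with TATA boxes, the interferon core and NF-kappaB matches in capitals. The windows of Ccl22, also wholly higher, and of Ccl21a held none of these motifs, and that of Cxcl9, which overlapped, held a TATA box. Cxcl13 (chr5:95956689-95956938, plus strand) and Ccl8 (chr11:82114935-82115184, plus strand) hold a TATA box, and Cxcl10 (chr5:92348890-92349139, minus strand) holds an interferon core and NF-kappaB matches.
Cxcl13: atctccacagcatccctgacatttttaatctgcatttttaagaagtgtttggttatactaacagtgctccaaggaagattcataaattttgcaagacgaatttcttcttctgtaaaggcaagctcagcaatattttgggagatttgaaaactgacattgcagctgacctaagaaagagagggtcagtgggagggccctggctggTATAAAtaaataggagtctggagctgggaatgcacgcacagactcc
Ccl8: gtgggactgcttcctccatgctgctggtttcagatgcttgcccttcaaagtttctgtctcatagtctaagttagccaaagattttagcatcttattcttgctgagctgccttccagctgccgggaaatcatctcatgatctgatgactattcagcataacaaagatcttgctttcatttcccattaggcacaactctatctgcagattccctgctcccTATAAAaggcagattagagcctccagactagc
Cxcl10: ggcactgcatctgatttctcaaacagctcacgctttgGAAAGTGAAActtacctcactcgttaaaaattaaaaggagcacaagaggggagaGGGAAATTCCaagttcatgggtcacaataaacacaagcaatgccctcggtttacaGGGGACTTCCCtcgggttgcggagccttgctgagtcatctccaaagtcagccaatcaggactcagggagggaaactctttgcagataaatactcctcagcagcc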

How the data were processed

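RNA from subcutaneous fat and liver was sequenced as libraries without strand, 1 per sample. The authors mapped reads with STAR (2.5 in the submitters' processing notes), counted them per gene with HTSeq 0.6.1, and deposited whole-number counts per gene without normalization. The deposited FPKM values were made by the authors from these counts, and 100% of 252371 values above 0 were recomputed within 1% from counts, gene lengths and size factors. The study's methods name a human reference for mapping, whereas the tables hold mouse genes at GRCm38 positions. A deposited table of the authors' own fat comparison (fold changes, p-values) was not used. Members and gene lists were chosen with earlier results of these data known. The lists of classes, markers and pathway genes were written by hand, and Cxcl11, a polymorphic pseudogene in the table, is no member.

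Counts were fitted over the whole table with edgeR 4.0.16 (R 4.3.3; TMM factors, filterByExpr with a minimum count of 10, quasi-likelihood test), with Benjamini-Hochberg adjustment over the genes tested and a call at adjusted p under 0.05. Each tissue was fitted alone; the interaction used all 12 libraries. For single genes an exact permutation test cannot go below 0.1 with 3 against 3. Alternatives were DESeq2 1.42.0, upper-quartile and library-size scaling, no filter, the replicate number as a block, all libraries in 1 fit, and each library left out. The steps were tested on simulated data in which 200 genes were changed. For fat, edgeR recovered 188 of them with 11 false calls, and DESeq2 recovered 189 with 33 false calls. For the interaction, edgeR recovered 105 with 7 false calls, and DESeq2 recovered 114 with 31. Libraries of a group were compared for duplicates, and each pair differed by more than counting noise (chi-square per gene 21.8 to 173). Depth was 15496019 to 19954971 reads per library. Exact intervals and floors cover counting error only.

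Values per library were given for homing genes, the 10 other ligands and 8 other receptors with the smallest fat p, the 5 members with the smallest liver p and the 8 largest differences called between null tissues; others named are given with their values as examples. Some genes are not reported here by name or plotted; the counts include them.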

Additional observations from a re-analysis of the deposited data

How the results depend on the processing

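The fold changes given for members kept their direction under the alternatives, with exceptions that were not called in the main edgeR fits. In fat these were Ccl6 (to 0.20), Ccl9 (to 0.27), Cxcl9 (to -0.27), Ccr1 (to -0.11) and Ccr10 (to -0.04) with a library left out. Ccl9 also turned under library-size scaling (0.07 in fat and 0.35 between null tissues), although between null tissues it was called lower with the replicate block. Of the calls of members between null tissues, those of Cxcl16 and Cxcl9 were lost in some fits. The counts of members called in fat (0 higher and 0 lower with edgeR) moved to 20 higher with DESeq2, 14 without the filter and 11 with the 12 libraries in 1 fit; leaving out a library at a time gave 0 to 23 higher and 0 to 1 lower, with both maxima without hHKDC1 OE fat replicate 2. In liver (0 and 0), DESeq2 called 2 higher, and without the filter 3 were called higher and 2 lower; leaving out a library gave 0 to 2 higher, with the maximum without hHKDC1 OE liver replicate 2. For the difference between tissues (0 and 0), DESeq2 called 6 higher and the fit without the filter 7, and leaving out a library gave 0 to 11 higher and 0 to 1 lower, again with the maxima without hHKDC1 OE fat replicate 2. Between null tissues, leaving out a library gave 9 to 11 higher and 3 to 6 lower beside 10 and 4 (29.4% to 32.7% and 25.8% to 28% of all genes), and library-size scaling 13 and 3 (59.1% and 15%). The cause was not tested. The median over the fat members, 1.63, was 0.90 without hHKDC1 OE fat replicate 3. The liver median, -0.04, lay near 0: it was 0.00314 under library-size scaling and -0.28 to 0.25 with a library left out. Library-size scaling moved the median of all fat genes from -0.05 to 0.11.

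With the replicate number as a block, 5 members were called higher in fat, beside 0.971% of all genes. Between null and hHKDC1 OE fat, deviations of same-numbered libraries correlated at 0.03, -0.13 and 0.03. There the numbers did not pair the libraries, as none correlated best with its own number. In liver these correlations were 0.21, 0.16 and 0.08, and the block called no member there or for the difference between tissues. Between null fat and null liver they were 0.24, 0.03 and 0.14, each library correlated best with its own number, and the block gave 10 higher and 5 lower (33.9% and 31.2% of all genes), the fifth being Ccl9 (edgeR adjusted p = 0.0218).

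Genes at a few reads per library, among them Ccl19, Ccl20 and Ccl3, are limited by depth, and differences between near-identical Ccl21 copies cannot be resolved from these counts.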
